A study of Mus musculus with 4 samples.

Results

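H19 and 6 other imprinted genes, Igf2, Cdkn1c, Meg3, Igf2r, Peg3 and Grb10, were followed through 4 single-cell libraries of mouse thymocytes. They are 7 of the 32285 genes counted, were picked by name, and their UMI counts and shares of cells in these same matrices were known when they were picked. Every level below is therefore a description, and no test was made. The libraries came from the thymus of C57BL/6J mice aged 3 weeks that were wild type (WT) or PD-1 knockout per the labels, with thymi of 4 animals pooled and CD8-bearing cells depleted. For each genotype, live CD4+ HSA+ cells were sorted by CD25: the CD25- gate stands for CD4 single-positive thymocytes and the CD25+ gate for regulatory T cells with their progenitors, per the labels. Each of the 4 groups is 1 library, so a difference between WT and knockout-labelled cells compares 2 libraries and has no replicate behind it. Pdcd1, the gene of PD-1, was at 18.3 CPM in WT and 27.2 CPM in knockout CD25- cells, and at 16.0 and 18.9 CPM in the CD25+ cells (a scaled count defined below). The counts thus go against the genotype label in the sense that Pdcd1 RNA was not lower over all cells of a gate. In classes of CD25+ cells defined below, it was at 19.3 CPM in WT and 13.7 CPM in knockout-labelled high-Mki67 cells. Low-Mki67 cells had 5.32 and 6.91 CPM, and Cd4/Trac cells 39.4 and 58.3 CPM. Which part of the gene is deleted was not analysed here, and the libraries are called knockout-labelled throughout. The sort names CD73 as a gate but CD74 as a stain.

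After filtering, 2985 WT CD25-, 7649 WT CD25+, 1716 knockout-labelled CD25- and 9236 knockout-labelled CD25+ cells were kept, 21586 in all, with medians of 4497, 5808, 6299 and 5962 UMIs per cell, a UMI being the barcode of a captured RNA molecule. Pairs of libraries shared between 15 and 136 barcodes, at most 1.58% of a library. The CD25+ libraries went against their label: although sorted as CD4+, 63.1% of WT and 71.9% of knockout-labelled cells there had no Cd4 UMI and at least 1 UMI of Ptcra, the invariant chain of the pre-T cell receptor. The CD25- libraries held 2 and 0 such cells. Cells with Ptcra and no Cd4 were split on Mki67, a marker of dividing cells, and on the summed UMIs of Cpa3, Lyl1 and Hhex, which mark early thymic progenitors. Low-Mki67 cells (under 5 Mki67 and under 2 progenitor-marker UMIs) numbered 4496 in WT and 5906 in knockout-labelled CD25+ cells. High-Mki67 cells (5 or more) numbered 228 and 541, progenitor-marker cells (2 or more, Mki67 under 5) 68 and 143, and cells that met both 33 and 54. Cells outside these classes with at least 1 UMI of Cd4 and Trac summed, called Cd4/Trac cells, numbered 2314 and 1485 in the CD25- gate and 1472 and 976 in the CD25+ gate, WT first. Levels are UMI counts scaled to 1e6 UMIs of a class (CPM), with an exact Poisson 95% interval in brackets, and ratios of levels carry exact conditional binomial 95% intervals. These intervals cover counting error only.

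Imprinted genes are expressed mainly from the copy inherited from 1 parent. DNA methylation laid down in the germ line tells the copies apart, and it can lie on the expressed or on the silent copy. H19 is a maternally expressed long noncoding RNA and lies beside Igf2, a paternally expressed growth factor. A control region, which CTCF binds only where it is unmethylated, decides which of the pair is used on each chromosome. H19 and Igf2 are thus alternatives on 1 copy, while both may be transcribed in the same cell. Igf2r, a receptor that carries IGF2 to the lysosome, and Grb10, an adaptor that damps insulin and IGF receptor signalling, act against growth, as does Cdkn1c, an inhibitor of cyclin-dependent kinases. Meg3 is a noncoding RNA of the Dlk1 locus, and Peg3 is a zinc finger protein. None of the counts separates the parental copies, so imprinting itself was not measured.

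H19 (ENSMUSG00000000031) is annotated in GENCODE vM21 as a long intergenic noncoding RNA at chr7:142575529-142578143 on the minus strand of GRCm38. Igf2 (ENSMUSG00000048583) lies 72622 bases away on the same strand, at chr7:142650766-142666816. An H19 exon holds the microRNA gene Mir675 and an Igf2 intron holds Mir483, whose mature RNAs are shown since they are the known small products of the loci that the results turn on. The mature RNAs themselves were not measured here. Sequences are from RefSeq for GRCm38.p6, written 5′ to 3′, with the seed (bases 2 to 8) in capitals, and the 4 seeds differ from each other.
mmu-miR-675-5p: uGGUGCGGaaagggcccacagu
mmu-miR-675-3p: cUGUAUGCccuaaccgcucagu
mmu-miR-483-5p: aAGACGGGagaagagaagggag
mmu-miR-483-3p: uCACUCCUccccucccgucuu

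Of the genes with an entry in the RefSeq promoter table, Igf2 and Igf2r are shown, since they differ most in where they were detected. For Igf2 the window nearest to H19 is given (chr7:142657497-142657746, minus strand) and for Igf2r its own (chr17:12769707-12769956, minus strand), each the 250 bases before an annotated start. GGGCGG, the letters of an Sp1 site, and CAGGTG, an E-box, are in capitals, searched on both strands, so that GGGCGG can overlap a second copy of itself. The Igf2 window holds 6 CG dinucleotides and GGGCGG at 2 places. The other Igf2 windows, not shown, hold 1, 10 and 22 CG dinucleotides, with GGGCGG at 0, 0 and 1 places. Igf2r has 27 CG dinucleotides, GGGCGG at 3 places and CAGGTG at 1 place. Windows of the same length hold GGGCGG in 32.7% and CAGGTG in 17.2% of 32851 promoters, with a median of 6 CG dinucleotides. A match describes letters and does not show binding.
Igf2: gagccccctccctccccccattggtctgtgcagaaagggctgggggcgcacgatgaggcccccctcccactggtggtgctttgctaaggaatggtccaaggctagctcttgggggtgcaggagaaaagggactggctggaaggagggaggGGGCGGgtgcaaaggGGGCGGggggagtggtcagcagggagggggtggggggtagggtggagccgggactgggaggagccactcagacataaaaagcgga
Igf2r: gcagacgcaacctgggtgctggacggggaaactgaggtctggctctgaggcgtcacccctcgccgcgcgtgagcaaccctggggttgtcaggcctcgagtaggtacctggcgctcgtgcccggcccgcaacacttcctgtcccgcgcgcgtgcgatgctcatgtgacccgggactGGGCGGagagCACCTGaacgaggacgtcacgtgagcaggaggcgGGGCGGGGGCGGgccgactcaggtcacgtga

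H19 was found only in the CD25+ libraries. Over all kept cells it had 21163 UMIs in 5883 cells, of which 11234 UMIs were in WT and 9929 in knockout-labelled CD25+ cells. Both CD25- libraries held 0 H19 UMIs, which allows at most 0.221 CPM in WT and 0.269 CPM in knockout-labelled cells (3 UMIs of the library). Low-Mki67 cells carried 90.7% of the H19 UMIs of the WT library and 87.3% of those of the knockout-labelled library, while holding 53.5% and 54.4% of all UMIs. Their level was 352 CPM in WT (345 to 359, 10192 UMIs) and 231 CPM in knockout-labelled cells (226 to 236, 8672 UMIs). At least 1 H19 UMI was present in 54.4% of WT and 42.4% of knockout-labelled low-Mki67 cells. After each cell was thinned to 1500 UMIs, so that depth no longer differed, the shares were 31.0% and 23.2%, against 0% in the CD25- Cd4/Trac cells.

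The high-Mki67 and progenitor-marker cells of both libraries had far less H19 per UMI. High-Mki67 cells had 49.4 CPM in WT (225 UMIs) and 46.0 CPM in knockout-labelled cells (390 UMIs). Relative to low-Mki67 cells this was 7.12-fold lower (6.24 to 8.17) and 5.03-fold lower (4.54 to 5.58). Progenitor-marker cells had 48.3 CPM in WT (39 UMIs) and 47.8 CPM in knockout-labelled cells (97 UMIs), 7.29-fold lower (5.33 to 10.3) and 4.84-fold lower (3.96 to 5.98). In cells that met both rules, 33 WT cells had 36.4 CPM (23.8 to 53.4) and 54 knockout-labelled cells had 19.7 CPM (12.4 to 29.9). The thinned share of cells with H19 was 7.02% in high-Mki67 cells of either library, against 2.94% and 5.59% in progenitor-marker cells of WT and knockout-labelled mice. In WT cells the order was thus low-Mki67, then high-Mki67 and progenitor-marker cells at levels whose intervals overlapped. The high-Mki67 cells were also deeper, at medians of 19587 and 15378 UMIs against 5916 and 5677 in low-Mki67 cells. Progenitor-marker cells had medians of 10308.5 and 12715 UMIs, and cells that met both rules 20698 and 19627.5. Depth bore on the size of the contrast. Among cells of over 8000 UMIs, a split chosen after the values were seen, H19 was at 49.0 CPM in high-Mki67 and 210 CPM in low-Mki67 WT cells, 4.29-fold lower (3.73 to 4.94). In knockout-labelled cells it was at 44.2 and 117 CPM, 2.64-fold lower (2.35 to 2.96). Progenitor-marker over low-Mki67 ratios at that depth were 0.244 in WT and 0.380 in knockout-labelled cells, against 0.137 and 0.207 at all depths.

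**Figure D1:**
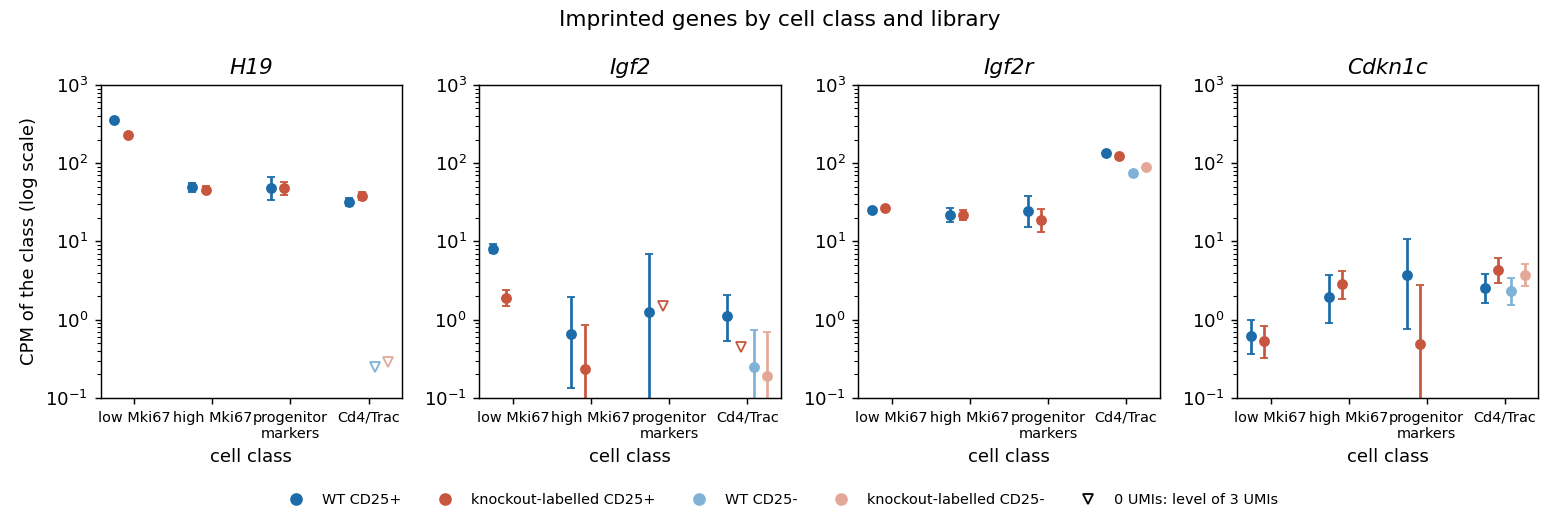
CPM of H19, Igf2, Igf2r and Cdkn1c on a log axis by cell class, 1 point per library with its 95% counting interval, and an open triangle at the level of 3 UMIs where none was counted. H19 and Igf2 stand highest in low-Mki67 cells (352 and 231 CPM for H19), Igf2r in Cd4/Trac cells (74.1 to 136 CPM).

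H19 was lower in cells with more Mki67 UMIs, up to 5 to 9 UMIs. Among Ptcra cells without Cd4, the WT level was 363 CPM at 0 Mki67 UMIs, 129 at 1 UMI, 77.1 at 2 to 4, 42.1 at 5 to 9 and 49.6 at 10 or more. The knockout-labelled levels over the same counts were 248, 114, 53.9, 48.6 and 40.4 CPM. Over a progenitor-marker sum of 0, 1, 2 to 3 and 4 or more, H19 was at 320, 154, 36.7 and 48.3 CPM in WT and at 205, 79.5, 50.9 and 26.0 CPM in knockout-labelled cells. The last 2 WT bins, of 56 and 45 cells, had overlapping intervals, so no further fall was seen there. H19 was higher where Ptcra was higher, at 174, 297, 368 and 390 CPM in WT cells with 1 to 2, 3 to 5, 6 to 9 and 10 or more Ptcra UMIs. Knockout-labelled cells had 116, 203, 230 and 197 CPM, so the last bin did not continue the rise. Rag1, a subunit of the recombinase that rearranges receptor genes, moved with H19 in low-Mki67 cells: H19 was at 191 CPM without Rag1 and at 501 CPM with 6 or more Rag1 UMIs in WT, and at 130 and 294 CPM in knockout-labelled cells. Counts of Ptcra and Rag1 also rise with the depth of a cell, so each bin mixes level and depth. The Mki67 and progenitor-marker bins differed in depth as well. From 0 to 10 or more Mki67 UMIs, median depth went from 5862 to 20632 UMIs in WT and from 5551 to 17067 in knockout-labelled cells. From a progenitor-marker sum of 0 to 4 or more, it went from 5988 to 17273 and from 5828 to 18887 UMIs. Other markers of the pre-T cell receptor stage did not all rise with H19. Low-Mki67 cells of 4000 to 8000 UMIs were split into those with 5 or more and those with 0 H19 UMIs. The first over the second had ratios of 1.45 in WT and 1.34 in knockout-labelled cells for Rag1, 0.602 and 0.585 for Tcf7, and 0.794 and 0.848 for Dntt. Of the 12 markers listed, only Tcf7 was past 1.5-fold in either library at this depth. Their median log2 ratio was 0.30 in WT and 0.20 in knockout-labelled cells. Dtx1 had ratios of 1.49 and 1.42, Erg 1.41 and 1.38, and Notch3 1.22 and 1.42. At all depths 3 of the 12 were higher and 1 lower by that fold in each library. Over all genes 2.54% were higher and 3.34% lower in WT, and 3.77% and 3.93% in knockout-labelled cells. Split by depth alone, low-Mki67 cells under 4000 UMIs, from 4000 to 8000 and above 8000 had H19 at 402, 443 and 210 CPM in WT and at 322, 306 and 117 CPM in knockout-labelled cells.

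**Figure D2:**
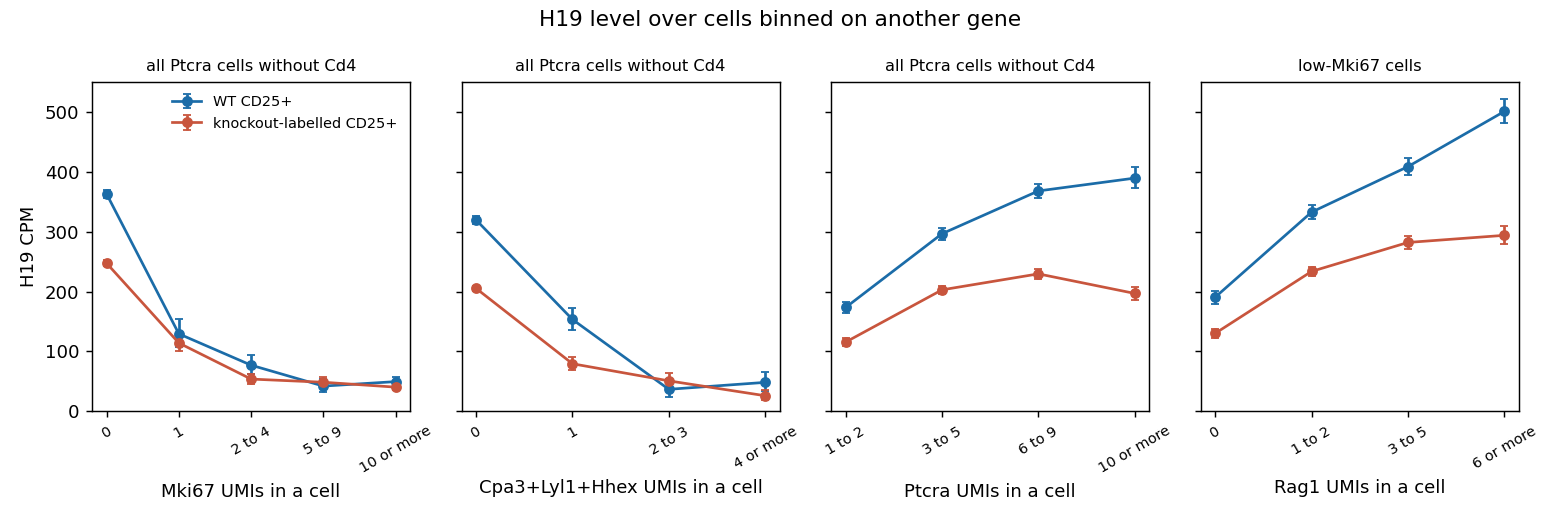
H19 CPM (linear axis, 95% counting intervals) in cells of the 2 CD25+ libraries binned on the UMIs of Mki67, of Cpa3, Lyl1 and Hhex summed, of Ptcra and of Rag1. H19 fell from 363 to 49.6 CPM over Mki67 in WT, rose over Rag1 in both libraries, and in WT lay above the knockout-labelled level in every Ptcra and Rag1 bin.

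H19 was uneven among cells of the same class. In WT low-Mki67 cells, 45.6% had 0 H19 UMIs, 37.4% had 1 to 4, 11.8% had 5 to 9 and 5.20% had 10 or more, up to 35 in a cell. A Poisson distribution of the same mean would leave 10.4% of the cells at 0. The variance was 5.88 times the mean, and the highest-counting 10% of cells held 48.9% of the H19 UMIs. Knockout-labelled low-Mki67 cells had 57.6% at 0, 31.9% at 1 to 4, 7.94% at 5 to 9 and 2.59% at 10 or more, up to 32. Their variance was 5.50 times the mean, and the top 10% of cells held 57.0% of the UMIs. In the cells of 4000 to 8000 UMIs the WT share at 0 was 40.1% and the variance 5.79 times the mean, so the unevenness was also present at a narrow range of depth. With counts this uneven, the counting intervals of the H19 levels understate the spread among cells.

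**Figure D3:**
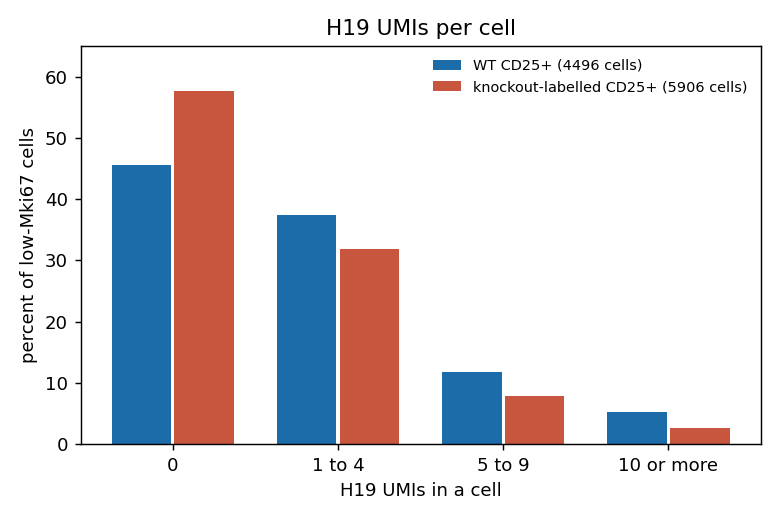
Percent of low-Mki67 cells (bars, from 0) by their number of H19 UMIs in the WT and knockout-labelled CD25+ libraries. Cells at 0 made up 45.6% of WT and 57.6% of knockout-labelled cells, and cells with 10 or more made up 5.20% and 2.59%.

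In the Cd4/Trac cells of the CD25+ gate H19 stood at 32.1 CPM in WT (288 UMIs in 62 cells) and at 38.4 CPM in knockout-labelled cells (257 UMIs in 70 cells). Against the Cd4/Trac cells of the CD25- gate, at 0 UMIs, these are at least 128-fold higher in WT and at least 133-fold higher in knockout-labelled cells, with the CD25- level set to 3 UMIs of the class. These folds belong to the rule that sums Cd4 and Trac. When each needed a UMI, H19 in these CD25+ cells was at 0.511 CPM in WT and 4.49 CPM in knockout-labelled cells. Under the summed rule, nearly all of the H19 was in the minority of Cd4/Trac cells that also had a Ptcra UMI. That split was made after the values were seen. By the class rules, a Cd4/Trac cell with Ptcra has a Cd4 UMI. The 106 such WT cells held 275 H19 UMIs, or 341 CPM, and 49.1% of them had H19. The other 1366 WT cells held 13 H19 UMIs, or 1.59 CPM (0.848 to 2.72), in 0.732% of cells. In knockout-labelled cells the values were 226 CPM (143 cells, 235 UMIs) with Ptcra and 3.89 CPM (833 cells, 22 UMIs) without. Foxp3, the defining factor of regulatory T cells, lay the other way, at 165 CPM in the WT Cd4/Trac cells without Ptcra and 31.0 CPM in those with it. In knockout-labelled cells Foxp3 was at 102 and 10.6 CPM. With suspected doublets kept, H19 in all Cd4/Trac cells was 44.8 and 59.3 CPM. What doublets and free RNA add to the values shown was not tested.

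**Figure D4:**
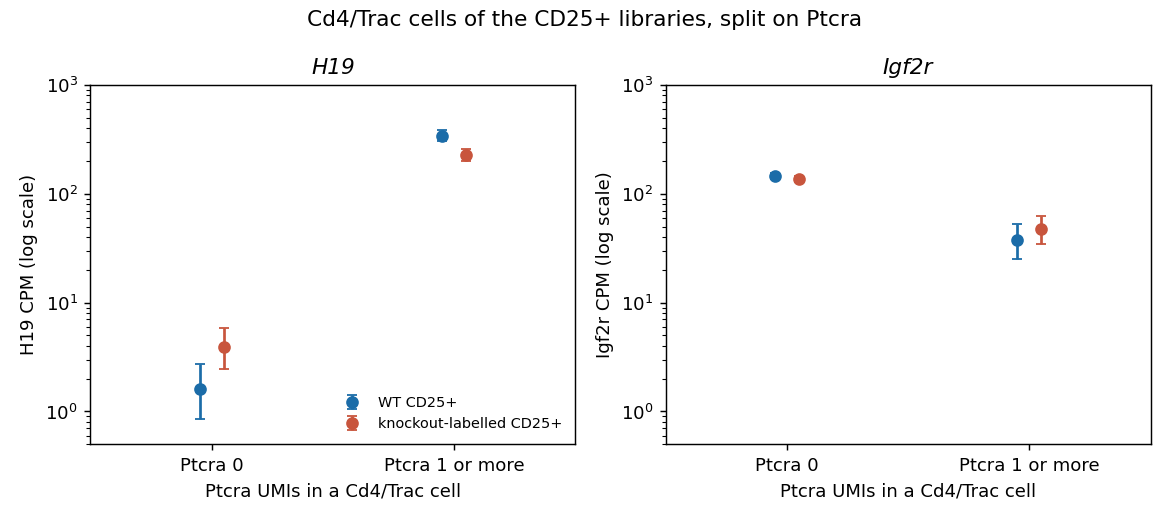
CPM of H19 and Igf2r on a log axis, with 95% counting intervals, in Cd4/Trac cells of the CD25+ libraries without and with a Ptcra UMI. H19 went from 1.59 to 341 CPM in WT and from 3.89 to 226 CPM in knockout-labelled cells, and Igf2r from 146 to 37.2 and from 137 to 47.2 CPM.

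Between the 2 CD25+ libraries, H19 was lower in knockout-labelled low-Mki67 cells, at 231 against 352 CPM, a ratio of 0.656 (0.638 to 0.675), just past 1.5-fold. It no longer passed that fold with cells weighted equally (0.701), at 4000 to 8000 UMIs per cell (0.691) or centred on the median gene (0.676). High-Mki67 cells had a ratio of 0.930 (0.787 to 1.10), progenitor-marker cells 0.989 (0.675 to 1.47) and Cd4/Trac cells 1.20 (1.01 to 1.42). In cells with 0 Mki67 UMIs the ratio was 0.681 (0.662 to 0.702). It lay between 0.506 and 0.684 over the 4 Ptcra bins, between 0.587 and 0.702 over the 4 Rag1 bins and between 0.555 and 0.8002 over the 3 depth ranges. By the Mki67 count of a cell it was 0.882 at 1 UMI, 0.699 at 2 to 4, 1.15 (0.843 to 1.59) at 5 to 9 and 0.814 at 10 or more. Over the progenitor-marker sum it was 0.642 at 0, 0.518 at 1, 1.39 (0.882 to 2.24) at 2 to 3 and 0.538 (0.340 to 0.856) at 4 or more. In low-Mki67 cells with 0 UMIs of Il2ra (the CD25 gene), WT had 184 CPM (120 cells) and knockout-labelled cells 177 CPM (220 cells), a ratio of 0.963 (0.735 to 1.27). Other features of the low-Mki67 cells differed between the libraries too. Of 8 cell cycle markers 6 were at least 1.5-fold higher in knockout-labelled cells (median log2 ratio 0.76), and of 12 markers of the pre-T cell receptor stage none was past that fold (median -0.27). Over all 9986 genes compared, 4.0% were higher and 2.79% lower by that fold, with a median of -0.04. Scn4b, a sodium channel subunit, was detected in 1399 WT and 652 knockout-labelled low-Mki67 cells. In cells with Scn4b, H19 was at 457 and 367 CPM, and in cells without it at 307 and 215 CPM, ratios of 0.803 and 0.702. The part of these features in the H19 difference was not tested further.

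Igf2 had 334 UMIs in 214 cells, most of them where H19 was high. Low-Mki67 cells had 8.09 CPM in WT (7.08 to 9.19, 234 UMIs in 137 cells) and 1.92 CPM in knockout-labelled cells (1.502 to 2.42, 72 UMIs in 54 cells). These were 92.9% and 93.5% of the Igf2 UMIs of their libraries. High-Mki67 cells had 3 and 2 Igf2 UMIs, progenitor-marker cells 1 and 0, and Cd4/Trac cells of the CD25+ gate 10 and 0. The CD25- libraries held 3 and 2 UMIs in all. The ratio of knockout-labelled to WT low-Mki67 cells was 0.237 (0.180 to 0.310), 4.21-fold lower. Igf2 entered that comparison through its WT level alone, so the direction of its difference was set there. Within WT cells that carried Cldn4, a tight-junction protein, Igf2 was at 18.4 CPM (94 UMIs in 783 cells), against 5.88 CPM in those without it. Knockout-labelled cells had 2.17 and 1.83 CPM under the same split. The annotated Igf2 gene overlaps Gm49394 on its own strand and Igf2os on the other. Of these only Igf2os was counted in the matrices. Igf2os had 41 UMIs in WT and 13 in knockout-labelled CD25+ cells, 39 and 13 of them in low-Mki67 cells. Reads from where Igf2 and Igf2os overlap can be assigned to either.

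Igf2 was found mainly in cells that also had H19. Among WT low-Mki67 cells, 0.586% of those with 0 H19 UMIs had Igf2 (12 of 2049 cells), against 3.15% of those with 1 to 4 (53 of 1683) and 9.42% of those with 5 or more (72 of 764). In knockout-labelled cells the shares were 0.235% (8 of 3401), 1.22% (23 of 1883) and 3.70% (23 of 622). At 4000 to 8000 UMIs per cell the order was the same: Igf2 stood at 1.91 CPM at 0 H19 UMIs and at 29.3 CPM at 5 or more in WT, a ratio of 15.3 (8.39 to 30.7). In knockout-labelled cells it stood at 0.507 and 9.40 CPM, a ratio of 18.5 (6.93 to 62.2). Igf2r in the same WT cells was at 25.5 and 27.2 CPM, a ratio of 1.07 (0.813 to 1.39), and in knockout-labelled cells at 27.3 and 38.4 CPM, a ratio of 1.41 (1.10 to 1.78). Other imprinted genes went either way along this split. Slc22a3, an organic cation transporter, was lower in the cells with 5 or more H19 UMIs, with ratios of 0.426 (0.191 to 0.857) in WT and 0.543 (0.306 to 0.905) in knockout-labelled cells. Ddc, a decarboxylase of amine synthesis, had 1.56 (1.00 to 2.43) and 1.29 (0.901 to 1.81), and Pon3, a paraoxonase, 1.11 (0.625 to 1.92) and 1.67 (1.04 to 2.62). Atp10a had 0.610 (0.309 to 1.13) and 0.764 (0.441 to 1.26). Gnas, the stimulatory G protein subunit, had ratios of 0.988 in WT and 1.05 in knockout-labelled cells, and Kcnq1ot1, a noncoding RNA of the Cdkn1c domain, had 1.14 and 1.08. Cells of 1 library are not replicates, so these shares describe 2 libraries.

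**Figure D5:**
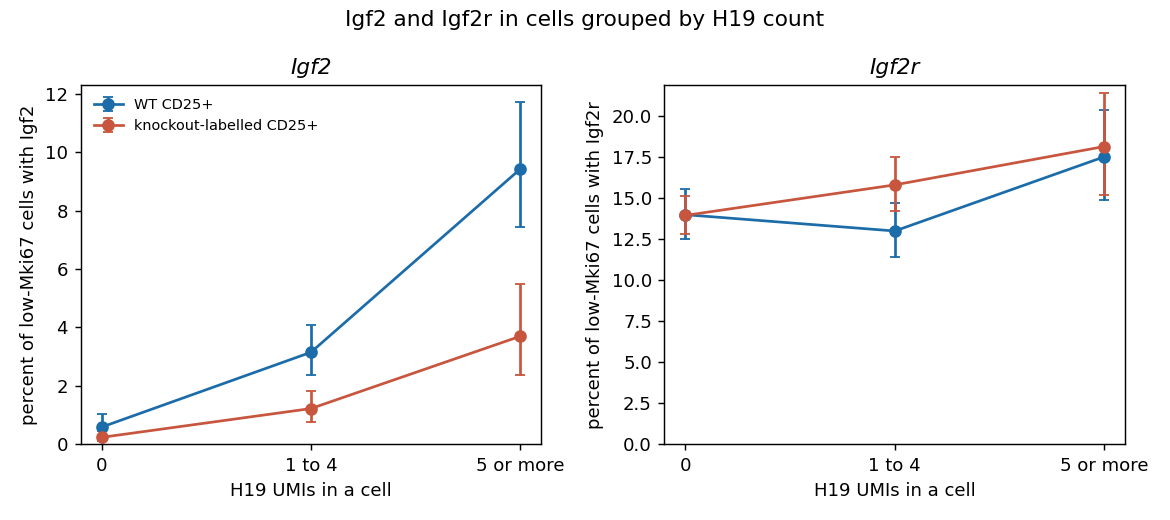
Percent of low-Mki67 cells with at least 1 UMI of Igf2 or Igf2r (axes from 0, exact 95% intervals) in cells grouped by H19 UMIs, for the 2 CD25+ libraries. Igf2 went from 0.586% to 9.42% in WT and from 0.235% to 3.70% in knockout-labelled cells, while Igf2r stayed between 13.01% and 18.2%.

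Igf2r (ENSMUSG00000023830, chr17:12682406-12769664, minus strand) had 7197 UMIs in 4940 cells and showed the reverse arrangement. It was lowest in the Ptcra cells of the CD25+ libraries: 24.9 CPM in WT and 26.7 CPM in knockout-labelled low-Mki67 cells, 21.8 and 21.9 CPM in high-Mki67 cells, and 24.8 and 18.7 CPM in progenitor-marker cells. The intervals of these 3 classes overlapped within each library, least for the knockout-labelled low-Mki67 cells (25.0 to 28.4 CPM), which overlapped the high-Mki67 (18.9 to 25.3 CPM) and progenitor-marker cells (13.2 to 25.7 CPM) only at the edge. Cd4/Trac cells had 74.1 CPM in the WT and 88.9 CPM in the knockout-labelled CD25- library, and 136 and 123 CPM in the CD25+ libraries. Low-Mki67 cells were thus 5.47-fold lower (4.99 to 6.01) than Cd4/Trac cells of their library in WT and 4.60-fold lower (4.19 to 5.05) in knockout-labelled mice. Within the Cd4/Trac cells of the CD25+ gate Igf2r was at 146 CPM without and 37.2 CPM with Ptcra in WT, and at 137 and 47.2 CPM in knockout-labelled cells. The CD25+ over CD25- ratio in Cd4/Trac cells was 1.84 (1.69 to 2.01) in WT and 1.38 (1.25 to 1.52) in knockout-labelled cells. Airn, the paternally expressed antisense RNA known to silence Igf2r on the same copy, was at 16.6 and 17.2 CPM in low-Mki67 cells and at 13.6 and 12.1 CPM in the Cd4/Trac cells beside them. Igf2r and Airn overlap, and the strand setting of the counting is not stated in the labels or file headers.

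Cdkn1c (ENSMUSG00000037664, chr7:143458339-143461050, minus strand) was sparse, at 234 UMIs in 221 cells and never more than 2 in a cell. Low-Mki67 cells had 0.622 CPM in WT (0.369 to 0.983) and 0.533 CPM in knockout-labelled cells (0.326 to 0.824). High-Mki67 cells had 1.98 CPM (0.904 to 3.75) and 2.83 CPM (1.81 to 4.21). Progenitor-marker cells had 3 UMIs in WT, or 3.72 CPM (0.766 to 10.9), and 1 UMI in knockout-labelled cells, or 0.492 CPM (0.0125 to 2.74), too few to place them in the order. Cd4/Trac cells had 2.56 and 4.33 CPM in the CD25+ gate and 2.33 and 3.76 CPM in the CD25- gate. A related inhibitor, Cdkn1a (p21), instead had the order of H19 over 3 classes. It was at 197 CPM in WT and 118 CPM in knockout-labelled low-Mki67 cells, 76.7 and 76.5 CPM in high-Mki67 cells, and 0.167 and 0.193 CPM in the CD25- Cd4/Trac cells. Over progenitor-marker sums of 0, 1, 2 to 3 and 4 or more Cdkn1a fell less than H19. Its levels there were 183, 155, 106 and 135 CPM in WT and 112, 81.8, 69.6 and 72.0 CPM in knockout-labelled cells. In low-Mki67 cells H19 was at 294 CPM where Cdkn1a was 0 and at 419 CPM where it was 5 or more in WT, and at 212 and 335 CPM in knockout-labelled cells.

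The other 3 genes were at or near absence. Peg3 (chr7:6703892-6730431) had 0 UMIs in all 21586 cells and 0 in the barcodes that were filtered out, which allows at most 0.0203 CPM over all kept cells. Meg3 (chr12:109541001-109571726) had 4 UMIs in 2 cells: 3 in a single WT CD25+ Cd4/Trac cell and 1 in a knockout-labelled CD25- cell outside the named classes. Grb10 (chr11:11930508-12038683) had 29 UMIs in 28 cells, with 7 UMIs in WT CD25+, 20 in knockout-labelled CD25+ and 1 in each CD25- library. Its level in knockout-labelled low-Mki67 cells was 0.293 CPM (0.146 to 0.525, 11 UMIs), against 2 UMIs in WT.

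Counted against all genes, the listed genes were few. A gene was compared where either side reached 5 CPM and both sides together held 20 UMIs or more, and was counted as higher or lower at 1.5-fold. A gene that reached 5 CPM on a single side thus had to lie higher on that side, though not necessarily by 1.5-fold. This held for Igf2 wherever it is named below and for H19 between the gates. Knockout-labelled over WT low-Mki67 cells had 3 of the 7 genes measured well enough, with H19 and Igf2 lower and none higher, where 2.79% of 9986 genes were lower and 4.0% higher. High-Mki67 over low-Mki67 cells had H19 and Igf2 lower of 3 compared in WT (31.6% of all genes lower, 14.0% higher, median log2 ratio of all genes -0.24) and H19 lower of 2 compared in knockout-labelled cells (25.0% lower, 10.1% higher, median -0.22). Low-Mki67 over Cd4/Trac cells had H19 and Igf2 higher and Igf2r lower in WT (22.8% of genes higher, 16.4% lower, median 0.11), and H19 higher and Igf2r lower in knockout-labelled cells (19.9% higher, 15.2% lower). CD25+ over CD25- Cd4/Trac cells had H19 and Igf2r higher in WT (10.3% higher, 7.16% lower), and H19 higher with Igf2r under the fold in knockout-labelled cells (14.7% higher, 10.3% lower). Since the genes were picked on these values, nothing is read from the counts.

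Of 64 further imprinted genes, listed with earlier results of these data known, 62 were counted in the matrices and 16 of these had 0 UMIs. In knockout-labelled over WT low-Mki67 cells 20 entered the comparison, with 2 higher, none lower and a median log2 ratio of -0.01 beside -0.04 over all genes. The pair that was higher were the transporter Slc22a3 at 12.98 against 8.54 CPM and the lipid flippase Atp10a at 11.8 against 7.57 CPM. In high-Mki67 over low-Mki67 cells 4 were higher and 7 lower of 20 in WT, and 3 higher and 6 lower of 20 in knockout-labelled cells. Over all genes 14.0% were higher and 31.6% lower in WT, and 10.1% and 25.0% in knockout-labelled cells, so the lower counts lie near the share of all genes. Those with the largest gains were Cd81, from 4.36 to 16.0 CPM in WT and from 6.48 to 12.4 CPM in knockout-labelled cells, Atp10a, from 7.57 to 19.1 and from 11.8 to 22.8 CPM, and Slc22a3, from 8.54 to 18.9 and from 12.98 to 25.7 CPM. Those with the largest losses in WT were Ddc, from 8.40 to 2.20 CPM, Sfmbt2, from 13.3 to 4.40 CPM, and Zrsr1, from 9.23 to 3.30 CPM. In knockout-labelled cells they were Sfmbt2, from 9.63 to 2.71 CPM, Blcap, from 20.7 to 7.90 CPM, and Zrsr1, from 8.19 to 3.54 CPM. Cd81 and Ddc in WT, and Sfmbt2 and Zrsr1 in both libraries, reached 5 CPM on a single side, so the direction of their difference was set there. The widest differences lay between low-Mki67 and Cd4/Trac cells, where 7 were higher and 5 lower of 22 in WT, and 5 higher and 5 lower of 22 in knockout-labelled cells. Over all genes the shares were 22.8% higher and 16.4% lower in WT, and 19.9% and 15.2% in knockout-labelled cells. Tspan32, a tetraspanin of blood cells from the same imprinted domain as Cdkn1c, was at 1.24 and 1.25 CPM in low-Mki67 cells and at 242 and 169 CPM in Cd4/Trac cells. Cd81, another tetraspanin of that domain, was at 4.36 and 6.48 CPM against 113 CPM in either library. Slc22a2, a cation transporter, had 1 and 3 UMIs in low-Mki67 cells against 14.2 and 10.6 CPM in Cd4/Trac cells. Pon3 lay the other way, at 7.05 and 7.17 CPM against 1.23 and 1.79 CPM, as did Slc22a3, at 8.54 and 12.98 CPM against 1.67 and 5.23 CPM, and Ddc, at 8.40 and 12.2 CPM against 2.56 and 3.59 CPM. Tspan32, Slc22a2, Pon3 and Ddc in both libraries, and Cd81 and Slc22a3 in WT, entered through the higher side alone. The direction of these differences was set by the rule, and only their size is described. In CD25+ over CD25- Cd4/Trac cells 2 were higher and 3 lower of 20 in WT, and 2 higher and 1 lower of 20 in knockout-labelled cells, beside 10.3% and 7.16% of all genes in WT and 14.7% and 10.3% in knockout-labelled cells. Gnas kept within 453 to 542 CPM over the low-Mki67, high-Mki67 and Cd4/Trac cells of all libraries.

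Other parts of the IGF pathway were counted from a list of 19 genes. Low-Mki67 cells had both signalling receptors for IGF2 at modest levels: Igf1r at 30.1 and 31.5 CPM and Insr at 34.3 and 35.6 CPM, against 17.4 and 18.5 CPM and 19.6 and 17.6 CPM in the Cd4/Trac cells beside them. Igf2bp2, which binds Igf2 mRNA, was at 16.1 and 18.0 CPM against 2.45 and 4.63 CPM. Igfbp4, which binds IGFs outside the cell, lay opposite, at 1.80 and 7.28 CPM in low-Mki67 cells, 218 and 120 CPM in Cd4/Trac cells of the CD25+ gate and 610 and 775 CPM in those of the CD25- gate. Igf2bp2 in both libraries and Igfbp4 in WT reached 5 CPM on a single side of the comparison of low-Mki67 with Cd4/Trac cells. Of the 18 factors that maintain imprints, 14 entered each of these comparisons. Between the CD25+ libraries none of the 14 differed by 1.5-fold in low-Mki67 cells. In high-Mki67 over low-Mki67 cells 6 of the 14 were higher and 3 lower in each library, where 14.0% of all genes were higher and 31.6% lower in WT, and 10.1% and 25.0% in knockout-labelled cells. The 3 lower are thus no more than the share of all genes. Dnmt1, the methyltransferase that copies methylation at replication, went from 135 to 420 CPM in WT and from 171 to 434 CPM in knockout-labelled cells. Tet1, Tet2 and Tet3, which oxidise methylcytosine, were the 3 that were lower, Tet1 falling from 41.5 to 19.6 CPM in WT. Uhrf1, which guides Dnmt1 to replicated DNA, stayed between 389 and 424 CPM in both classes. Zfp57, which protects imprints in embryos, had 14 UMIs in all, and Ctcf, which binds the control region of H19, was at 176 and 171 CPM in low-Mki67 cells and 197 and 198 CPM in Cd4/Trac cells.

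Genes with the profile most like that of H19 were ranked by Pearson's r of log2(CPM + 1) over the 15 class-by-library profiles of at least 50 cells, among 11183 genes. Such an r describes classes that share libraries and depth. The glucose transporter Slc5a9 stood first (r = 0.995), with 266 and 257 CPM in low-Mki67 cells, 41.1 and 44.5 CPM in high-Mki67 cells and 38.2 and 58.1 CPM in CD25+ Cd4/Trac cells. Arhgef10l (0.989), Plxdc1 (0.988), the Notch receptor Notch3 (0.987), Syngr2 (0.981) and Rag1 (0.981) came next, followed by Rab44, Nwd1, Adamts17 and Hmgn3, the last at 0.976. Slc5a9 had nearly the same level in the low-Mki67 cells of both libraries, whereas H19 was lower in the knockout-labelled cells. For Igf2 the nearest gene was Tmem204 (0.931), at 7.74 CPM in WT and 1.33 CPM in knockout-labelled low-Mki67 cells.

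Markers of other cell types were looked for in the same low-Mki67 cells. Of 10 stromal markers 3 had UMIs in each library, summing to 15.3 CPM in WT and 23.9 CPM in knockout-labelled cells, of which Pdgfrb made up 14.6 and 22.4 CPM. Col1a2, Col3a1, Pdgfra and Lum were at 0. Of 10 thymic epithelial markers 6 had UMIs, summing to 284 and 345 CPM, of which Epcam made up 218 and 255 CPM, while Krt5, Krt14 and Foxn1 were at 0. Of 8 erythroid markers 3 had UMIs, summing to 1.00 and 1.33 CPM. Endothelial markers summed to 58.4 and 57.4 CPM, myeloid and dendritic markers to 186 and 163 CPM, and B cell markers to 160 and 152 CPM. Of the epithelial markers, 3 were compared between low-Mki67 cells with 5 or more and with 0 H19 UMIs, at 4000 to 8000 UMIs. Epcam had ratios of 1.29 in WT and 1.40 in knockout-labelled cells, Cldn4 1.36 and 1.38, and Ccl25 0.893 and 0.868. The stromal marker Pdgfrb had 0.448 and 0.852, and Il2ra, a gene of the thymocytes themselves, 1.28 and 1.29. The part of other cell types in the H19 and Igf2 levels was not tested.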

How the data were processed

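Thymocytes of 4 libraries were measured by 10x Genomics 5′ single-cell RNA sequencing (kit v2, per the labels' protocols). The authors deposited raw UMI counts per gene and barcode, whole numbers with no normalization, per the file headers. The submitters' processing notes give Cell Ranger 6.2.1 and mm10, whereas version 6.1.2 stands in the file headers. The annotation and cell calling settings are not stated there. The deposited counts were filtered to barcodes with at least 500 genes and under 10% mitochondrial UMIs, and suspected doublets were removed with Scrublet in scanpy 1.11.5 at 0.8% per 1000 barcodes. Of 32285 gene identifiers, 32235 were found in GENCODE vM21 (GRCm38), which gave the positions. RefSeq tables gave the sequences.

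UMIs were summed per class and library and scaled to CPM (numpy 2.4.6, scipy 1.17.1). A level of 0 was bounded by 3 UMIs. Shares of cells were also computed after thinning to 1500 UMIs per cell, leaving out shallower cells, 41 of WT and 72 of knockout-labelled low-Mki67 cells. The ratio and call functions were tested on simulated data. With 1 library per group no p-value, standard error or replicate spread exists. The 7 genes, the classes and all lists were chosen with earlier results of these data known. Genes to be named were the 7, from each list the 3 highest and 3 lowest ratios per comparison described among members with at least 20 UMIs in a class, and the 10 genes most like H19. Other listed genes (Gnas, Airn, Kcnq1ot1, Igf1r, Ctcf, Zfp57 and the like) were named for their role with their values known, and Pdcd1 as the targeted gene. Scn4b, Cldn4, Il2ra, Rag1, Cdkn1a and Foxp3 as splits or comparisons were chosen after values were seen. Alternatives were other cell filters, class minimums, totals, weights, level minimums and folds.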

Additional observations from a re-analysis of the deposited data

Results flagged for a closer look

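The ratio of knockout-labelled to WT cells took opposite directions in different classes for 2 of the genes, and neither difference was tested. H19 had a ratio of 0.656 in low-Mki67 cells of the CD25+ gate and of 1.20 in Cd4/Trac cells of that gate. In the Cd4/Trac cells most H19 lay in the cells with a Ptcra UMI, which were 106 of 1472 WT and 143 of 976 knockout-labelled cells, and within those cells the levels were 341 and 226 CPM. Igf2r had a ratio of 1.20 in Cd4/Trac cells of the CD25- gate (1.09 to 1.32) and of 0.900 in Cd4/Trac cells of the CD25+ gate (0.823 to 0.984).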

How the results depend on the processing

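No paired analysis was possible because each group is 1 library and the labels give no replicate numbers. Of the 153 settings computed, 104 were of H19 ratios, and the rest were of levels, shares and gene counts, which have no direction to turn. No ratio of 1.5-fold or more turned, while the 2 knockout-labelled to WT ratios of H19 that lie near 1 crossed it. In high-Mki67 cells the ratio went from 0.930 to 1.01 with doublets kept. In progenitor-marker cells it went from 0.989 to 1.25 with Mki67 split at 2, 1.23 with cells weighted equally, 1.21 without Scn4b and 1.03 on the reduced total named below or centred on the median gene. In all, 97 settings left the value within its counting interval or, for a count of genes, within 1.5 times, and 56 moved it outside. Depth limits Igf2, Cdkn1c and Grb10, whose levels rest on few UMIs, and the counting intervals leave out the spread among cells and among animals.

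The H19 level of low-Mki67 cells (352 CPM in WT, 231 CPM in knockout-labelled cells) was 344 and 226 CPM with doublets kept, 369 and 246 CPM at 2 or more Ptcra UMIs, 475 and 324 CPM on a total without mitochondrial, ribosomal and T cell receptor genes, and 388 and 272 CPM with cells weighted equally. The knockout-labelled to WT ratio there (0.656) was 0.679 with Mki67 split at 2, 0.682 on the reduced total, 0.701 with cells weighted equally and 0.676 centred on the median gene. These ratios lie above the reciprocal of 1.5, so H19 would no longer count as 1.5-fold lower. In alternatives chosen after seeing the data the ratio was 0.691 at 4000 to 8000 UMIs, 0.702 without Scn4b and 0.615 without Cldn4. In progenitor-marker cells it was 0.525 with the sum set at 1.

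High-Mki67 over low-Mki67 cells went from 0.199 to 0.235 in knockout-labelled cells with doublets kept, and over 8000 UMIs (chosen after seeing the data) the ratios were 0.233 in WT and 0.379 in knockout-labelled cells. Progenitor-marker over low-Mki67 cells (0.137 in WT, 0.207 in knockout-labelled cells) was 0.218 in WT with doublets kept, 0.388 and 0.304 with the sum set at 1, and in knockout-labelled cells 0.255 at 2 or more Ptcra UMIs and 0.128 with the sum set at 3. Over 8000 UMIs these were 0.244 and 0.380. Low-Mki67 over Cd4/Trac cells (11.0 in WT, 6.02 in knockout-labelled cells) was 7.68 and 3.81 with doublets kept, 689 and 51.5 when Cd4 and Trac each needed a UMI, 221 and 59.4 without Ptcra cells (chosen after seeing the data), and 14.2 in WT with cells weighted equally.

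The thinned share of low-Mki67 cells with H19 (31.0% and 23.2%) was 54.4% and 42.4% unthinned and 44.4% and 33.0% at 3000 UMIs. Cells at 0 H19 UMIs (45.6% and 57.6%) were 40.1% and 53.2% at 4000 to 8000 UMIs. Of the 69 imprinted genes counted, those past 1.5-fold between the CD25+ libraries in low-Mki67 cells (4) were 7 at a minimum of 1 CPM, 1 at 20 CPM and 1 at 2-fold. For high-Mki67 over low-Mki67 cells (13 in WT, 10 in knockout-labelled cells) they were 4 and 5 at 20 CPM, and 6 in knockout-labelled cells at 2-fold. For low-Mki67 over Cd4/Trac cells (15 and 12) they were 8 and 6 at 20 CPM.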
